A study of Mus musculus with 12 samples.

Results

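Primitive endoderm genes were followed in mouse embryonic stem cells (ESCs) in which the level of the Yes-associated protein (YAP) was lowered or raised. The set held 9 genes of the 24480 in each count table, matched by gene symbol: the transcription factor genes Gata4, Gata6, Sox17, Sox7 and Foxa2, the receptor gene Pdgfra, the endocytic genes Dab2 and Cubn, and Afp, which encodes a secreted protein. The rule for membership used the gene names and no measured value, but earlier results of these data were known when the genes were chosen. All 9 symbols were present in the tables, with whole-number counts in every library, and their joint level was low, with 436 to 588 expected counts per library for the whole set.

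Primitive endoderm is the layer of the blastocyst that lines the cavity and later forms the visceral and parietal endoderm of the yolk sacs. In the inner cell mass, fibroblast growth factor (FGF) signalling favours Gata6 over Nanog, and Pdgfra, Sox17, Gata4 and Sox7 then come on in turn in the cells that leave the epiblast. Cultured ESCs keep an epiblast identity, and cells that switch on these genes appear among them at low frequency. YAP is the coactivator at the end of the Hippo pathway and binds DNA through TEAD factors.

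The cells were E14Tg2a, a mouse ESC line grown without feeder cells in serum and leukemia inhibitory factor, a medium that holds cells undifferentiated. All 4 groups shared this line and a transient lipid transfection. In the knockdown experiment the cells took up scrambled siRNAs (CTR KD) or siRNAs against mouse YAP (YAP KD), and in the overexpression experiment they took up a control plasmid (CTR OE), which encodes GFP per the labels and is an empty vector in the study's own description, or a plasmid that encodes mouse YAP (YAP OE) from the broadly active CAG promoter. Each group had 3 libraries, which the study describes as independent samples, 12 in all. The comparison in each experiment asked whether genes of early endoderm differed with the YAP level. The labels do not say that any transfected cells were selected, so each library is a bulk average, in which fewer cells expressing a gene and less RNA of it per cell cannot be told apart.

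The libraries held 4.293e+07 to 5.724e+07 expected counts, which are RSEM's estimates of reads per gene, and 17611 to 18163 genes had at least 1 count. Levels are given as CPM, a gene's expected counts relative to its library's total after TMM scaling, as mean ± SD. Yap1 (chr9:7931999-8004638, mm10) stood at 125 ± 9.40 CPM in CTR KD against 56.7 ± 1.80 CPM in YAP KD (n = 3 each). It stood at 133 ± 2.02 CPM in CTR OE against 259 ± 16.6 CPM in YAP OE (n = 3 each). The targeted gene therefore followed the labels in every library, and the groups overlapped in neither experiment. Genes of ESC identity were abundant: the 6 markers Pou5f1, Sox2, Nanog, Klf4, Zfp42 and Esrrb summed to between 3143 and 3444 CPM in each library. A gene was called where edgeR's quasi-likelihood test gave a Benjamini-Hochberg adjusted p under 0.05 over all genes tested.

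The primitive endoderm genes lay far below these markers. Per kilobase of effective transcript length, the scale on which genes can be compared with each other, the order over all 12 libraries began with Dab2 at 0.693 ± 0.208 CPM per kb and Gata4 at 0.608 ± 0.140 CPM per kb (SD, n = 12), and these neighbours did not differ beyond their spread. Their order depended on the group: Gata4 was above Dab2 in CTR KD (0.714 against 0.531 CPM per kb) and YAP KD (0.698 against 0.578), and below it in CTR OE (0.558 against 0.649) and YAP OE (0.463 against 1.02). Cubn (0.238 ± 0.0416), Pdgfra (0.185 ± 0.0364), Gata6 (0.174 ± 0.0540) and Sox7 (0.158 ± 0.0575) followed in CPM per kb, then Sox17 (0.110 ± 0.0222) and Foxa2 (0.100 ± 0.0349), and Afp was the lowest. From Cubn to Foxa2 the SD ranges of neighbours overlapped, whereas those of Gata4 and Cubn did not. Nanog, which marks the epiblast fate opposed to primitive endoderm, was 282 times as high as Dab2 per kilobase and 1951 times as high as Foxa2. Leaving Afp aside, the genes stood between the 11.0th and the 38.5th percentile of the detected genes of a library.

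**Figure D1:**
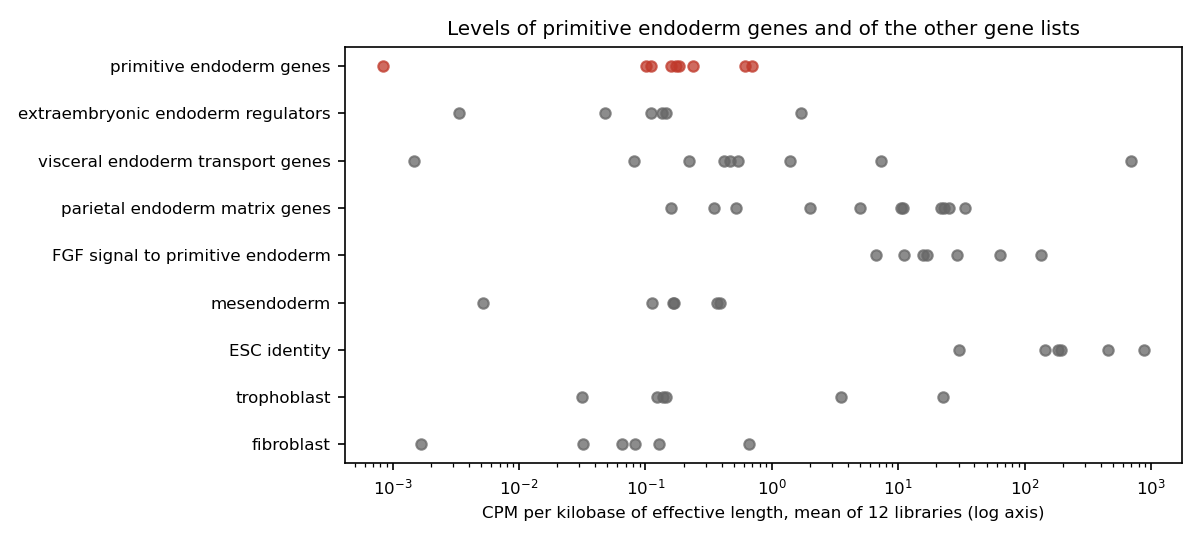
Levels per kilobase of effective length (CPM per kb, log axis, mean of 12 libraries), 1 point a gene, for the 9 primitive endoderm genes (red) and 8 other lists (grey). All of the primitive endoderm genes lie below 1 CPM per kb, from 0.693 for Dab2 down to 0.000843 for Afp, while the 6 ESC identity genes lie between 30.5 and 880.

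Gata4, a zinc-finger factor of primitive endoderm and later of visceral and parietal endoderm, lies at chr14:63198914-63271712. It had 71, 139 and 132 counts in CTR KD and 94, 103 and 117 in YAP KD. It had 92, 96 and 88 counts in CTR OE and 77, 63 and 87 in YAP OE. The knockdown groups overlapped, with 1 control library below and 2 above all of the YAP KD libraries, whereas in the overexpression every YAP OE library lay below every control on the CPM scale. The levels were 2.31 ± 0.651 CPM in CTR KD against 2.25 ± 0.0822 CPM in YAP KD, with a log2 change of -0.04 ± 0.187 (SE; edgeR adjusted p = 0.937). They were 1.80 ± 0.150 CPM in CTR OE against 1.49 ± 0.0546 CPM in YAP OE, with a log2 change of -0.26 ± 0.134 (SE; edgeR adjusted p = 0.431). The 95% interval of this second change ran from -0.55 to 0.02, so that a loss of Gata4 RNA with added YAP was not called and a rise of more than 0.02 lay outside the interval.

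Gata6, the GATA factor that acts at the head of the primitive endoderm programme, lies on chromosome 18 (11052510 to 11085636). It had 17, 23 and 24 counts in CTR KD and 21, 19 and 27 in YAP KD, and the groups overlapped. It had 17, 40 and 20 counts in CTR OE and 27, 35 and 39 in YAP OE, where 1 control library lay above all YAP OE libraries and the other 2 below them. Its log2 change was 0.14 ± 0.222 with knockdown (SE; edgeR adjusted p = 0.818) and 0.41 ± 0.305 with overexpression (SE; edgeR adjusted p = 0.637). Without the CTR OE library of 40 counts the overexpression value was 0.91, still uncalled (edgeR adjusted p = 0.171). The 95% interval with all libraries, -0.24 to 1.06, was wide and spanned 0.

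Sox17 and Sox7 encode related SRY-box factors, Sox17 of early primitive endoderm and Sox7 of its later, parietal derivatives. Sox17 (chr1:4490928-4497426) had 18, 23 and 19 counts in CTR KD, 17, 11 and 22 in YAP KD, 15, 18 and 13 in CTR OE, and 13, 14 and 18 in YAP OE. Sox7 (chr14:63943706-63950732) had 17, 21 and 24 counts in CTR KD, 42, 15 and 28 in YAP KD, 25, 25 and 21 in CTR OE, and 18, 18 and 32 in YAP OE. The groups overlapped for both genes in both experiments. Sox17 differed by -0.19 ± 0.260 with knockdown and by -0.01 ± 0.291 with overexpression on the log2 scale (SE; edgeR adjusted p = 0.764 and 0.993). Sox7 differed by 0.53 ± 0.363 with knockdown and by -0.05 ± 0.256 with overexpression (SE; edgeR adjusted p = 0.480 and 0.974). The knockdown value of Sox7 rested on the YAP KD library with 42 counts, and without it the log2 change was 0.06.

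Foxa2, a forkhead factor of visceral and definitive endoderm (chr2:148042877-148046969), was at the edge of what these libraries could measure. It had 10, 8 and 10 counts in CTR KD, 8, 13 and 4 in YAP KD, 7, 14 and 7 in CTR OE, and 11, 6 and 13 in YAP OE. The group means were nearly level, with YAP OE the highest (0.194 CPM) and CTR OE the lowest (0.185 CPM), and all groups overlapped. In the knockdown it fell below the filter on low counts, and an exact two-sided permutation test on CPM gave p = 1, where 3 libraries against 3 cannot give less than 0.1. In the overexpression its log2 change was 0.11 ± 0.399 (SE), with a 95% interval from -0.74 to 0.97 and an edgeR adjusted p of 0.951.

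**Figure D2:**
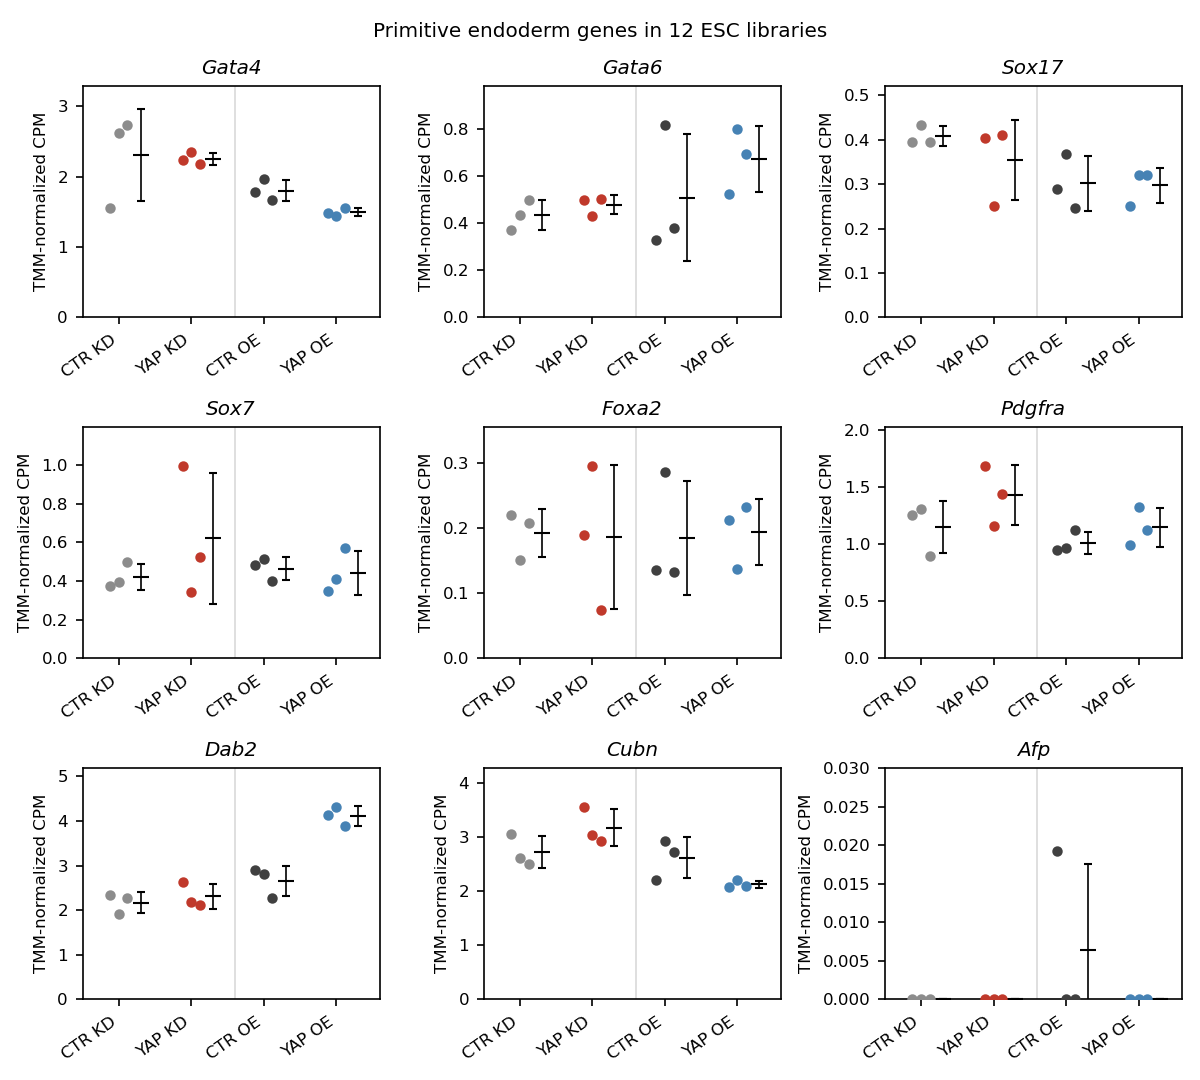
TMM-normalized CPM of each of the 9 primitive endoderm genes in the 12 libraries, 1 point a library, with the mean and SD of 3 libraries beside each group. The YAP OE libraries of Dab2, at 3.88 to 4.32 CPM, lie above all other libraries. Those of Gata4 and Cubn lie below all other libraries, by narrow margins.

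Pdgfra (chr5:75151322-75198206) encodes the receptor for platelet-derived growth factor that is used as a surface marker of primitive endoderm. It had 57, 69 and 43 counts in CTR KD, 71, 51 and 77 in YAP KD, 49, 47 and 59 in CTR OE, and 51, 58 and 63 in YAP OE. The groups overlapped in both experiments. Its means were 1.15 ± 0.223 CPM in CTR KD against 1.43 ± 0.262 CPM in YAP KD, a log2 change of 0.31 ± 0.194 (SE; edgeR adjusted p = 0.431). They were 1.01 ± 0.0952 CPM in CTR OE against 1.15 ± 0.171 CPM in YAP OE, a log2 change of 0.17 ± 0.171 (SE; edgeR adjusted p = 0.746).

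Dab2 was the primitive endoderm gene that changed with YAP, and it did so in the overexpression. It encodes an endocytic adaptor that links receptors of the low-density lipoprotein receptor family to clathrin, and it is needed for the visceral endoderm to form an ordered layer. Dab2 spans chr15:6299788-6440715 on the plus strand, with 5 transcripts in the count tables, and RefSeq's table for GRCm38.p6 (mm10) places starts at 2 separate sites. The bases before both starts are shown because they are the promoters of the gene that moved, and because the TEAD and GATA letters discussed with YAP and with this lineage can be looked for in them. Capitals mark matches to the GATA letters AGATAA or TGATAA and to the TEAD letters GGAATG on either strand, a match on the minus strand being printed as its reverse complement. The upstream start, chr15:6299539-6299788, has 36.8% G or C and 2 CG dinucleotides in 250 bases, and the downstream start, chr15:6386498-6386747, has 60.0% and 17.
Upstream start: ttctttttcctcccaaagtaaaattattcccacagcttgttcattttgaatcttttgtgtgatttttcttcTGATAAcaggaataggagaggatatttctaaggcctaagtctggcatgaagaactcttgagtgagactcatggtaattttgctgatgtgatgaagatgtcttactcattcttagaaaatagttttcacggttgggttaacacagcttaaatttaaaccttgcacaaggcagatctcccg
Downstream start: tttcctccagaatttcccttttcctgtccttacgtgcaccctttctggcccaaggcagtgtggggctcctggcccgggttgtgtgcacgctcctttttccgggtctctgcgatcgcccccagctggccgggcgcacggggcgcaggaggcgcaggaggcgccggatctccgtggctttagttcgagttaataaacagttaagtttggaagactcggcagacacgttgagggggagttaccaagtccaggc

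Further matches lay in the first 50 bases after the starts, and each is shown with its surroundings. The upstream start has a GATA match on the minus strand within chr15:6299791-6299820 and the downstream start has a TEAD match on the minus strand within chr15:6386757-6386786.
GATA match after the upstream start: attctctttggcTTATCTgctgtgcatttt
TEAD match after the downstream start: atcccgccgccaCATTCCtggagagtcctc
Of the 32851 windows in the table, each with 250 bases before and 50 after a start, 14.7% held the TEAD letters and 18.6% held a GATA match, so that such matches are common. Windows were given for 5 of the 9 genes (Foxa2, Pdgfra, Dab2, Cubn and Afp); beside those of Dab2, 1 of the 3 windows of Foxa2 held a GATA match, and the others held none of these letters. A match is a run of letters and not a measured binding site.

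Dab2 had 107, 101 and 109 counts in CTR KD and 111, 96 and 114 in YAP KD. In the overexpression it had 150, 137 and 120 counts in CTR OE and 213, 189 and 218 in YAP OE. Scaled to library size, the controls stood at 2.90, 2.80 and 2.27 CPM and the YAP OE libraries at 4.12, 4.32 and 3.88 CPM. All 3 YAP OE libraries were higher than all of the other 9 libraries, and the knockdown groups overlapped. The mean of 2.66 ± 0.335 CPM in CTR OE rose to 4.11 ± 0.220 in YAP OE (n = 3 each), 1.55-fold, with a log2 change of 0.63 ± 0.111 (SE; 95% interval 0.39 to 0.87; edgeR adjusted p = 0.00645). With knockdown it was 2.17 ± 0.235 CPM in CTR KD against 2.32 ± 0.278 CPM in YAP KD, with a log2 change of 0.09 ± 0.134 (SE; edgeR adjusted p = 0.771). The 95% interval of the knockdown change, -0.21 to 0.39, leaves out a fall of the size of the rise with overexpression. The interaction, the overexpression effect minus the knockdown effect, was 0.54 ± 0.174 on the log2 scale (SE; 95% interval 0.17 to 0.91) and missed the threshold (edgeR adjusted p = 0.0711). The mean transcript length that RSEM gave Dab2 ran from 4027 to 4393 bases, and the YAP OE libraries (4161 to 4283 bases) lay within the range of the others.

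Dab2 acts with a receptor complex of the visceral endoderm: Lrp2 encodes megalin, Cubn encodes cubilin, and Amn encodes amnionless, which carries cubilin to the cell surface. Of these 4 genes, Lrp2 was called in both experiments, Dab2 in the overexpression, and Cubn and Amn in neither. Cubn (chr2:13276338-13491876) had 139, 138 and 120 counts in CTR KD, 150, 133 and 157 in YAP KD, 114, 143 and 144 in CTR OE, and 107, 96 and 118 in YAP OE. Its knockdown groups overlapped, and in the overexpression every YAP OE library, at 2.071 to 2.196 CPM, lay just below the lowest control at 2.201 CPM. The mean was 2.62 ± 0.375 CPM in CTR OE against 2.12 ± 0.0649 CPM in YAP OE, a log2 change of -0.30 ± 0.128 (SE; 95% interval -0.57 to -0.03), which was not called (edgeR adjusted p = 0.310). With knockdown it was 2.72 ± 0.296 CPM in CTR KD against 3.17 ± 0.339 CPM in YAP KD, a log2 change of 0.22 ± 0.121 (SE; edgeR adjusted p = 0.359). Cubn was thus on the opposite side of 0 from Dab2 in the overexpression, and its interaction was -0.52 ± 0.177 (SE; edgeR adjusted p = 0.0824).

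Lrp2 (chr2:69424335-69586029), which is not one of the 9 genes but belongs to the list of visceral endoderm transport genes, was the member of the complex called in both experiments. It stood at 96.8, 97.7 and 97.5 CPM in CTR KD and 84.1, 79.0 and 78.5 CPM in YAP KD, and at 119, 124 and 124 CPM in CTR OE and 148, 158 and 138 CPM in YAP OE. The groups did not overlap in either experiment. Lrp2 fell by 0.27 ± 0.0411 on the log2 scale with knockdown (SE; edgeR adjusted p = 0.00589) and rose by 0.27 ± 0.0469 with overexpression (SE; edgeR adjusted p = 0.00510). The interaction was 0.55 ± 0.0649 (SE; edgeR adjusted p = 8.93e-05). The controls of the experiments also differed, CTR OE being 0.33 ± 0.0458 above CTR KD (SE; edgeR adjusted p = 0.00187). Per kilobase, Lrp2 was at 5.27 to 9.68 CPM per kb over the 4 group means, well above the 9 genes. Amn stood at 0.801 ± 0.0618 CPM in CTR KD, 0.675 ± 0.0994 in YAP KD, 0.881 ± 0.0956 in CTR OE and 0.910 ± 0.243 in YAP OE, with log2 changes of -0.26 ± 0.190 and 0.03 ± 0.207 (SE; edgeR adjusted p = 0.515 and 0.979). The knockdown groups of Amn did not overlap (25.7% of all genes tested). The 95% interval of its knockdown change, -0.69 to 0.16, held both 0 and the -0.27 of Lrp2. Amn had a mean of 40.1 counts per library and Lrp2 5552, so a change of that size could not be told from 0 for Amn.

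**Figure D3:**
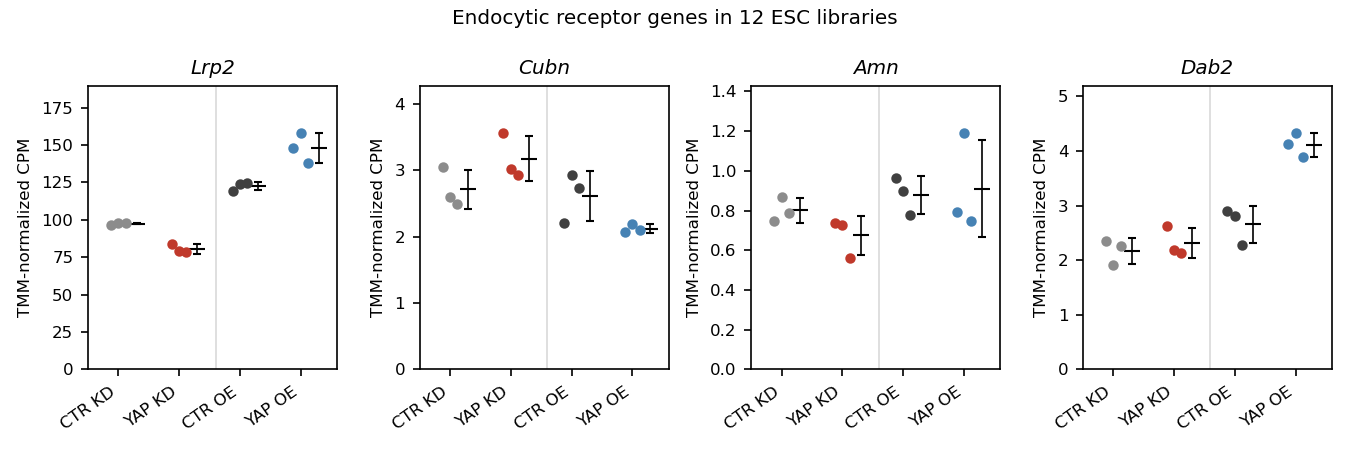
TMM-normalized CPM of Lrp2, Cubn, Amn and Dab2 in the 12 libraries, 1 point a library, with the mean and SD of 3 libraries beside each group, each panel on its own axis from 0. Lrp2 lies lower in YAP KD and higher in YAP OE than in the matching controls, Dab2 lies higher in YAP OE than in CTR OE, and Cubn and Amn were not called in either experiment.

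Afp, the gene of alpha-fetoprotein and a product of the later visceral endoderm and yolk sac (chr5:90490714-90508907), had 1 count in the first CTR OE library and 0 counts in the other 11 libraries. Over the 3 libraries of a group, 0 counts allow a level of up to 0.02502 CPM in CTR KD, 0.02637 CPM in YAP KD and 0.02446 CPM in YAP OE. These limits are the upper ends of 95% Poisson intervals and cover counting error only. At this depth Afp RNA was not detectable beyond a single count with YAP lowered or raised, and no fold is given.

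As a set, none of the 7 primitive endoderm genes that passed the filter in the knockdown was called, and 5.49% of the 14606 genes tested were called (2.71% higher and 2.78% lower). None had an unadjusted p under 0.05 either (19.6% of all genes tested), and none had groups that did not overlap (25.7% of all genes tested). DESeq2 and limma-voom also called none, although DESeq2 gave no adjusted p for Gata6, Sox17 and Sox7. In the overexpression, 1 of 8 tested genes was called, Dab2, which rose; 2.13% of the 14804 genes tested were called (1.66% higher and 0.473% lower). Dab2 and Cubn, 2 of the 8, had an unadjusted p under 0.05 (13.1% of all genes tested), Dab2 higher and Cubn lower in YAP OE. Gata4, Dab2 and Cubn, 3 of the 8, had groups that did not overlap (18.2% of all genes tested). The tested genes had a median log2 change of 0.14 with knockdown and 0.05 with overexpression, against 0.0058 and -0.0025 over all genes tested. Of the 7 genes tested in both experiments, 0 were lower in YAP KD and higher in YAP OE, 2 were the other way round (Sox7 and Cubn), 3 were higher in both (Gata6, Pdgfra and Dab2) and 2 were lower in both (Gata4 and Sox17). These are signs of point estimates, and all except that of Dab2 in the overexpression came from values that were not called.

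**Figure D4:**
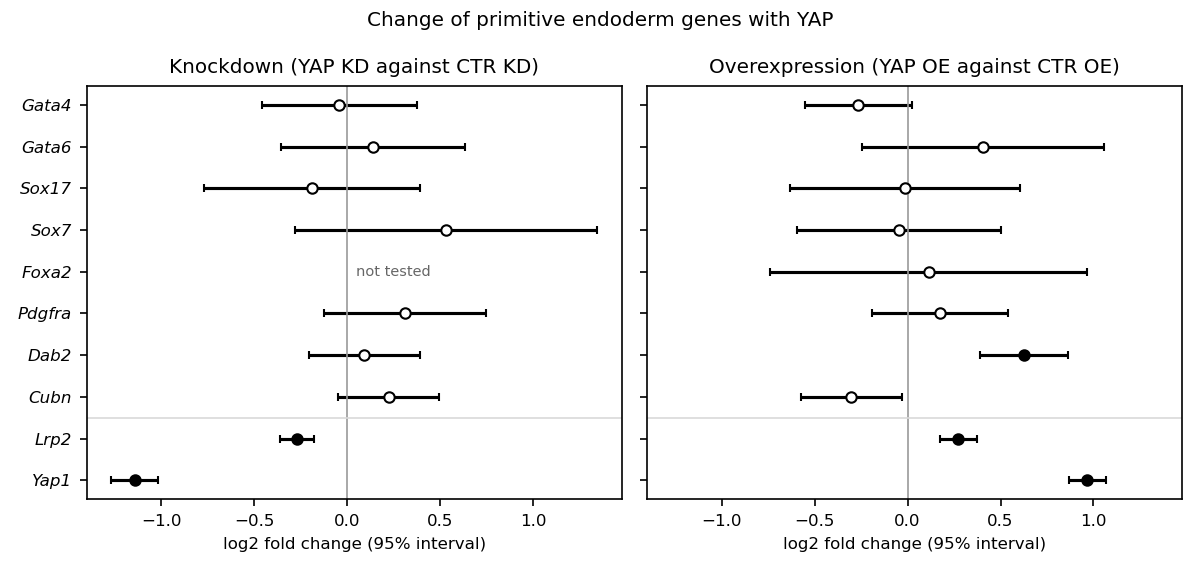
Log2 changes with their 95% intervals for 8 primitive endoderm genes, and for Lrp2 and Yap1 below the line, in the knockdown (left) and the overexpression (right). Filled points were called by edgeR: among the 8 genes above the line only Dab2 in the overexpression, at 0.63; Afp was not tested.

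The test of the difference between the 2 effects put all 12 libraries in 1 fit. None of 8 primitive endoderm genes was called, against 8.8% of 15049 genes tested, and none was called by DESeq2 or limma-voom. DESeq2 gave no adjusted p for Sox17 and Foxa2, so it could not call these. Dab2 and Cubn had an unadjusted p under 0.05 (22.5% of all genes tested), Dab2 with a higher effect in the overexpression and Cubn with a lower one. The calls moved when single libraries were left out: Dab2 passed without the second CTR KD or the first YAP KD library, and Cubn passed without the first CTR KD or the first CTR OE library. Over all 12 such fits the interaction of Dab2 ran from 0.43 to 0.63 (edgeR adjusted p from 0.0370 to 0.169) and that of Cubn from -0.64 to -0.44 (edgeR adjusted p from 0.0371 to 0.180). For Gata6, Sox17, Sox7, Foxa2 and Pdgfra, the SE of this difference ran from 0.260 to 0.633 on the log2 scale, so only large differences could have been seen.

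The 2 control groups were also set side by side, since they differ in transfected nucleic acid and in experiment, which cannot be told apart. None of 8 primitive endoderm genes was called between CTR OE and CTR KD, against 1.33% of all genes tested, nor by DESeq2 or limma-voom. DESeq2 gave no adjusted p for Gata6, Sox17, Sox7 and Foxa2, so it could not call them. Gata4 was lower in CTR OE, with a log2 difference of -0.37 ± 0.164 (SE; edgeR adjusted p = 0.428) and Dab2 was higher by 0.29 ± 0.126 (SE; edgeR adjusted p = 0.388), each with an unadjusted p under 0.05 (10.8% of all genes tested). Without the CTR KD library that had 71 counts of Gata4, its difference was -0.57 and was called (edgeR adjusted p = 0.0289). Sox17 was the gene whose control groups did not overlap (16.3% of all genes tested), lower in CTR OE with a log2 difference of -0.44 ± 0.252 (SE; edgeR adjusted p = 0.601).

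Other genes of the extraembryonic endoderm were read as lists. Among the extraembryonic endoderm regulators, 4 were tested (Hnf4a, Foxa1, Hhex and Ihh), and edgeR, DESeq2 and limma-voom called none in the knockdown, the overexpression or the difference, also with none at an unadjusted p under 0.05. Over all genes tested, edgeR called 5.49%, 2.13% and 8.8% in these comparisons. Hnf4a, a nuclear receptor of visceral endoderm, differed by 0.17 ± 0.236 and -0.10 ± 0.235 in the 2 experiments (SE, log2). Hhex, a homeobox factor of the anterior visceral endoderm, differed by -0.05 ± 0.110 and -0.04 ± 0.127. Foxa1 had the largest knockdown change of the list, -0.62 ± 0.309 (SE, edgeR adjusted p = 0.316). Its knockdown groups did not overlap (25.7% of all genes tested). With overexpression Foxa1 differed by -0.03 ± 0.300 (SE). Cer1, an inhibitor secreted by the anterior visceral endoderm, had 0 counts in 10 libraries and 2 and 1 in the other 2, both YAP OE.

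Among 9 visceral endoderm transport genes, 7 were tested, and Lrp2 was the gene called in each experiment, lower in YAP KD and higher in YAP OE. Over all genes tested, 5.49% were called between the knockdown groups and 2.13% between the overexpression groups. The list's median log2 change was -0.11 with knockdown and 0.15 with overexpression, against 0.0058 and -0.0025 over all genes tested. Ttr, which encodes the thyroxine carrier transthyretin, had a single count in all 12 libraries, and Apoa1 had 0 to 7 counts per library, so these secreted products were near 0 in every group. Other secreted products of the list were not: Apoe, which encodes apolipoprotein E, stood at 700 CPM per kb over the 12 libraries, and Apob and Trf had means of 148 and 146 counts per library. The transferrin gene Trf differed between the controls (-0.51 ± 0.117, SE; edgeR adjusted p = 0.0473), a call kept in 3 of 12 fits that left out 1 library.

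Among 11 parietal endoderm matrix genes, all of which were tested and several of which ESCs express at high levels, 1 was called in each experiment (5.49% of all genes tested in the knockdown and 2.13% in the overexpression). Sparc, which encodes a secreted matrix glycoprotein, rose with overexpression, from 56.9 ± 1.70 CPM in the controls to 67.9 ± 1.52, a log2 change of 0.26 ± 0.0392 (SE; edgeR adjusted p = 0.00223). In the knockdown it was 53.3 ± 1.70 CPM in CTR KD against 47.6 ± 2.66 CPM in YAP KD, which was not called (-0.16 ± 0.0495, SE; edgeR adjusted p = 0.101), and the interaction was called (0.42 ± 0.0627, SE; edgeR adjusted p = 0.000628). Pth1r, the parathyroid hormone receptor of parietal endoderm, went from 0.874 ± 0.130 in CTR KD to 1.62 ± 0.381 CPM in YAP KD (0.86 ± 0.211, SE; edgeR adjusted p = 0.0456), a call lost in 4 of 6 fits that left out 1 library and with limma-voom. The laminin, collagen IV and other genes of the list were not called. The list's median was -0.09 with knockdown and 0.09 with overexpression, against 0.0058 and -0.0025 over all genes tested.

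In the list of 7 genes of the FGF signal that directs cells to primitive endoderm, 1 was called in the knockdown (5.49% of all genes tested). In the overexpression 0 were called (2.13% of all genes tested). The gene called was Spry4, a feedback inhibitor of the pathway, which rose from 71.0 ± 2.09 in CTR KD to 83.8 ± 1.39 CPM in YAP KD (0.24 ± 0.0401, SE; edgeR adjusted p = 0.00867). This call was lost without the third CTR KD library and without the first YAP KD library (edgeR adjusted p = 0.0538 and 0.0511). Spry4 was 75.4 ± 1.50 CPM in CTR OE against 68.7 ± 6.66 CPM in YAP OE, which was not called, and the interaction was called (-0.37 ± 0.0776, SE; edgeR adjusted p = 0.00661). Fgfr2, the receptor that primitive endoderm expresses, was called in the interaction alone (0.35 ± 0.0593, SE; edgeR adjusted p = 0.00166), with -0.18 ± 0.0448 in the knockdown and 0.17 ± 0.0441 in the overexpression (SE; edgeR adjusted p = 0.0526 and 0.0659). Fgf4, the ligand made by epiblast cells, differed by -0.07 ± 0.0507 and 0.00278 ± 0.0399 (SE; edgeR adjusted p = 0.528 and 0.990).

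Markers of other cell types were read in the same libraries. The 6 ESC identity genes were not called in either experiment by edgeR, DESeq2 or limma-voom. In the knockdown 3 had an unadjusted p under 0.05 (19.6% of all genes tested), all lower in YAP KD. These were Nanog (-0.13 ± 0.0394), Zfp42 (-0.13 ± 0.0399) and Esrrb (-0.16 ± 0.0565, SE, log2). In the overexpression 1 had (13.1% of all genes tested), Klf4, lower in YAP OE (-0.11 ± 0.0419, SE). For the difference of the effects edgeR called 0 of the 6 genes, with 2 at an unadjusted p under 0.05. DESeq2 called 2 of the 6 genes and limma-voom called 1. The 6 mesendoderm genes (T, Mixl1, Eomes, Gsc, Lhx1 and Fgf8) summed to 1.87 to 2.61 CPM in YAP KD against 2.46 to 2.74 in CTR KD, and to 2.77 to 3.25 CPM in YAP OE against 2.14 to 2.65 in CTR OE. Of the 4 mesendoderm genes tested, edgeR, DESeq2 and limma-voom called none in either experiment. In the knockdown 0 had an unadjusted p under 0.05, and in the overexpression 2 had (13.1% of all genes tested). These were T and Eomes, with log2 changes of 0.71 ± 0.293 and 0.55 ± 0.156 (SE). Mixl1 and Gsc went the other way, with log2 changes of -0.56 ± 0.334 and -0.44 ± 0.281 (SE). Within the sums, Eomes alone stood at 1.26 ± 0.237 CPM in CTR OE and 1.85 ± 0.144 CPM in YAP OE. Lhx1 had 0 to 2 counts per library. The 6 fibroblast genes summed to 1.84 to 2.22 CPM in CTR KD against 2.35 to 3.11 in YAP KD, which did not overlap, and to 2.47 to 3.03 CPM in CTR OE against 2.69 to 2.84 in YAP OE. Lum had 0 or 1 count in each library. Of the 4 fibroblast genes tested, edgeR, DESeq2 and limma-voom called none in either experiment, with 2 at an unadjusted p under 0.05 in the knockdown (19.6% of all genes tested) and 0 in the overexpression.

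Genes of the trophoblast list were called in the same comparison as Dab2, a gene that is also expressed in trophoblast. Of its 6 genes 5 were tested in the overexpression and 2 were called, both higher (1.66% of all genes tested were called higher). Cdx2, a homeobox factor of trophectoderm, had 6, 5 and 12 counts in CTR OE and 33, 28 and 34 in YAP OE, a log2 change of 2.05 ± 0.303 (SE; edgeR adjusted p = 0.00159). Gata3, a GATA factor of trophectoderm, had 12, 11 and 21 counts in CTR OE and 46, 53 and 57 in YAP OE, a log2 change of 1.84 ± 0.251 (SE; edgeR adjusted p = 0.000886). All 5 tested genes had an unadjusted p under 0.05 (13.1% of all genes tested). Hand1 and Krt7 were higher in YAP OE but not called, with log2 changes of 1.17 ± 0.366 and 0.43 ± 0.125 (SE; edgeR adjusted p = 0.136 and 0.110). The groups of Hand1 did not overlap (18.2% of all genes tested). Cdx2 and Gata3 stayed low, with means of 0.628 and 1.04 CPM in the YAP OE libraries, and Elf5, another defining trophoblast gene, had 0 to 9 counts in every library. The summed level of the list did not follow these rises (56.6 to 61.2 CPM in CTR OE and 53.1 to 59.7 CPM in YAP OE). Tfap2c, which ESCs express too and which was lower in YAP OE, made up most of the sum (53.3 CPM in CTR OE against 47.7 CPM in YAP OE). The part of the trophoblast genes in the Dab2 result was not tested. In the knockdown, where Dab2 was not called, Tfap2c rose by 0.47 ± 0.0570 on the log2 scale (SE; edgeR adjusted p = 0.00217), and the list summed to 79.4 to 88.9 CPM in YAP KD against 57.5 to 64.8 CPM in CTR KD. Krt7, a keratin gene of trophoblast and other epithelia, was called between the controls, higher in CTR OE by 0.77 ± 0.135 (SE; edgeR adjusted p = 0.00903).

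Profiles over the libraries were compared for the primitive endoderm genes with enough counts. For the 4 genes with a mean of at least 50 counts, Pearson's correlation of log2 CPM, centred within each experiment, was computed over the 12 libraries with each of 12395 other genes, as a description, since all of these values share libraries and depth. The genes nearest to Dab2 were Tpx2, 3830417A13Rik and Ppp1r16b (r = 0.92, 0.92 and 0.91), whereas Pdgfra ranked 2471st (r = 0.28), Cubn 10759th (r = -0.36) and Gata4 11555th (r = -0.47). The genes nearest to Gata4 were Rnasek, Bcar3 and Ccdc115 (r = 0.85 for each), those nearest to Pdgfra were Tsacc, Nrep and Sema3f (r = 0.84, 0.82 and 0.82), and those nearest to Cubn were Pla2g4e, Epha7 and Ccdc96 (r = 0.89, 0.87 and 0.87). None of these 4 genes ranked nearer than 1718th to another. With means from 57.9 (Pdgfra) to 139 (Dab2) counts per library, counting error pulls such correlations toward 0. The centring within each experiment also leaves the difference between YAP and control libraries in these values. The ranks therefore cannot show that the genes vary apart.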

How the data were processed

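The authors aligned the RNA-seq reads with STAR to mm10, and RSEM assigned them to curated RefSeq genes; versions and strand setting are not given in the sources used here. Expected counts, as deposited, are not normalized and were rounded to whole numbers. RSEM divides reads shared by similar genes; the 9 genes had no fractional count. The length scores in the deposited tables served for levels per kilobase, and the deposited TPM values were not used in any result. Knockdown and overexpression were tested separately (6 libraries each), and the interaction and the controls on all 12, with edgeR 4.0.16 (R 4.3.3): filterByExpr, TMM, quasi-likelihood F test (two-sided), Benjamini-Hochberg adjustment over all genes kept. The SE is the absolute log2 fold change over the square root of F. The scripts were tested on simulated data. Library depth was 4.293e+07 to 5.724e+07 expected counts, and intervals for counts cover counting error only. The 9 genes, the lists and the rule for named genes (all genes of the lists, Yap1 and the 3 nearest profiles) were chosen with earlier results of these data known. The alternatives were other scalings, filters, DESeq2 1.42.0, limma-voom (limma 3.58.1), a replicate block, 1 fit of 12 libraries and leaving out each library. The labels number replicates but do not say that a number links groups. 1 gene of the regulator list is not reported here.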

Additional observations from a re-analysis of the deposited data

Results flagged for a closer look

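The overexpression effect minus the knockdown effect, tested as an interaction in 1 edgeR fit of 12 libraries, passed the adjusted threshold for Yap1 itself (2.11 on the log2 scale) and for 7 genes of the lists that are not among the 9 primitive endoderm genes. Over all genes, 8.8% of the 15049 tested were called in this contrast. Among endoderm genes the called ones were Lrp2 (0.55), of 7 visceral endoderm transport genes tested, and Sparc (0.42) and Pth1r (-0.97), of 11 parietal endoderm matrix genes tested. Among 7 FGF genes tested they were Fgfr2 (0.35) and Spry4 (-0.37). Among 5 trophoblast genes tested they were Cdx2 (2.04) and Tfap2c (-0.63). The values of Pth1r and Cdx2 depended on single libraries: Pth1r stayed called in 2 of 12 fits that left out 1 library and Cdx2 in 9 of 12. The interaction of Pth1r also missed the threshold with DESeq2 and limma-voom (adjusted p = 0.0514 and 0.0747). Groups of 3 libraries were too small to test single libraries as outliers.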

How the results depend on the processing

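Dab2 in the overexpression stayed called under every alternative run, from 0.52 to 0.69 on the log2 scale with 1 library left out (edgeR adjusted p from 0.00937 to 0.0439) and from 0.62 to 0.63 otherwise (adjusted p from 8.516e-05 to 0.00991). The count of primitive endoderm genes called stayed at 0 in the knockdown and at 1 in the overexpression throughout. With 1 library left out it ranged from 0 to 1 for the difference of the effects and from 0 to 1 between the controls. Fits without single libraries also turned signs of uncalled changes, which ranged in the knockdown from -0.25 to 0.093 for Gata4 and from -0.0066 to 0.15 for Dab2. In the overexpression they ranged from -0.14 to 0.15 for Sox17, from -0.29 to 0.11 for Sox7 and from -0.079 to 0.55 for Foxa2. The difference of the effects ranged from -0.0098 to 0.34 for Sox17, -0.24 to 0.70 for Foxa2 and -0.26 to 0.016 for Pdgfra, and the difference between controls from -0.30 to 0.44 for Gata6, -0.50 to 0.13 for Foxa2 and -0.13 to 0.064 for Cubn. The cause was not tested.

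Same-numbered libraries did not deviate together (correlations from -0.38 to -0.0031 in the knockdown and from -0.040 to 0.074 in the overexpression), so the numbers were not taken as a pairing. With the replicate block the calls among primitive endoderm genes were the same counts, 0, 1, 0 and 0, while the calls over all genes went from 802 to 193 in the knockdown, 316 to 280 in the overexpression, 1325 to 784 for the difference and 200 to 88 between the controls. Under the block the knockdown calls of Lrp2, Pth1r and Spry4 and the interactions of Cdx2 and Pth1r missed the threshold (edgeR adjusted p = 0.0569, 0.132, 0.0746, 0.0780 and 0.105), as did Trf between the controls (adjusted p = 0.209). Calls over all genes ranged from 298 to 1019 in the knockdown, 154 to 327 in the overexpression and 85 to 217 between controls with 1 library left out, reached 1261 in the knockdown with all 12 libraries in the fit, and 556 in the overexpression with no filter. Depth limits the transcription factor genes other than Gata4: at 1 CPM in 3 libraries only 4 of the 9 genes were tested.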
